A study of Homo sapiens with 6 samples.

Results

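RL95-2, an established human endometrial carcinoma cell line, was profiled by RNA-seq with and without medium conditioned by adipocytes, and 10 genes of fatty acid synthesis and desaturation were examined in these libraries. The genes were SREBF1, ACLY, ACACA, FASN, SCD, ELOVL6, ELOVL5, FADS1, FADS2 and ME1, chosen by symbol as SREBP1 and the lipogenic enzymes it is known to regulate, and all 10 were among the 23228 genes of the count tables. The 3 control libraries came from cells in equal parts of serum-free RPMI and DMEM, and the 3 ADP-CM libraries from cells in equal parts of serum-free RPMI and the conditioned medium (ADP-CM), both for 24 h. ADP-CM was DMEM in which mature adipocytes, isolated from human visceral adipose tissue of patients with obesity, had been cultured, so the groups differed in everything the adipocytes released or used up, and a single line stands for the tumor. The labels do not say whether the libraries came from separate cultures, so the p-values measure the spread between these libraries, which may be technical.

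Reads assigned to genes numbered 16262614 to 17096135 in control libraries and 18103609 to 18363033 in ADP-CM libraries. Replicates were close, with a common biological coefficient of variation of 1.67%. The epithelial markers EPCAM, KRT7, KRT8, KRT18, KRT19 and CDH1 were all expressed, and 4 of these 6 (CDH1, KRT8, KRT18 and KRT19) fell in ADP-CM, with a sum of 5455 to 5606 CPM in control and 4740 to 4822 CPM in ADP-CM, while of the endometrial epithelium markers PAX8 and EMX2 rose (log2 fold changes 0.28 and 0.60, adjusted p-values 1.53e-11 and 0.00328, edgeR), ESR1 had 20 to 51 reads and was not called, PGR had at most 12 reads, and SOX17 had 0 reads in every library. The 12 adipocyte markers summed to between 5.79 and 7.19 CPM in control and between 4.47 and 5.27 CPM in ADP-CM. Of these markers 8 never exceeded 3 reads, ADIPOQ and LEP among those at 0, and LIPE alone was tested and fell. Stromal markers summed to at most 68.4 CPM in control and at least 78.3 CPM in ADP-CM, nearly all of it COL1A1, and leukocyte markers to at most 8.17 and at least 9.82 CPM, nearly all of it CD68. Endothelial markers summed to between 60.7 and 66.4 CPM in control and between 54.5 and 61.6 CPM in ADP-CM, nearly all of it CDH5, with KDR at 0 reads. Only RL95-2 cells were cultured for these libraries, and the study filtered the conditioned medium before use. The part of these markers in the results was not tested. In bulk RNA, fewer cells that express a gene and less RNA per cell cannot be told apart.

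Fatty acids are built in the cytosol from citrate. ACLY splits citrate to acetyl-CoA, ACACA carboxylates it to malonyl-CoA, and FASN condenses these units to palmitate with NADPH that ME1 and the pentose phosphate enzymes supply. ELOVL6 lengthens palmitate, SCD places the first double bond to give oleate and palmitoleate, and FADS2, ELOVL5 and FADS1 act in turn on the essential polyunsaturated fatty acids. SREBF1 encodes SREBP1, a membrane-bound transcription factor that moves to the nucleus after cleavage and drives these genes, and its own transcription responds to the oxysterol receptor LXR, while the related SREBF2 product mainly drives sterol synthesis. Lipogenesis is often high in carcinoma cells.

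RefSeq start regions, each from 250 bases before to 50 bases after a gene's start on GRCh38.p14, matched 9 of the 10 genes in 13 windows. FASN did not match. Windows are shown for SREBF1 and SCD, which were higher in ADP-CM, and for ACLY and ELOVL5, which did not pass the test, so that the letters can be set side by side. Capitals mark GGGCGG (Sp1 box), CCAAT (NF-Y box) and CACGTG (E-box) on either strand. The windows are chr17:17836937-17837236 on the minus strand for SREBF1, chr10:100346983-100347282 on the plus strand for SCD, chr17:41918973-41919272 on the minus strand for ACLY and chr6:53348901-53349200 on the minus strand for ELOVL5.
SREBF1: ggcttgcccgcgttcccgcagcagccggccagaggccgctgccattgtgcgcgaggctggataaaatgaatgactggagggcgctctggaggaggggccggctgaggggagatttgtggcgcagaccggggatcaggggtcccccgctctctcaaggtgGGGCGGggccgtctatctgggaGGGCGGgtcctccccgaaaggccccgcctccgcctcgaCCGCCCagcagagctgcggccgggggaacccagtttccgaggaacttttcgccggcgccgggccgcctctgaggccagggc
SCD: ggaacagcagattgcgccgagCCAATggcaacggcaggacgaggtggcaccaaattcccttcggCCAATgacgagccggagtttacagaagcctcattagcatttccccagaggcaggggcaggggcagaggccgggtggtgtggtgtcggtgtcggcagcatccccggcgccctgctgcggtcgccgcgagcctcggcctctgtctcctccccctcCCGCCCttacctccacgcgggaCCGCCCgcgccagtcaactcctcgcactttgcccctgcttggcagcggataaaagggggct
ACLY: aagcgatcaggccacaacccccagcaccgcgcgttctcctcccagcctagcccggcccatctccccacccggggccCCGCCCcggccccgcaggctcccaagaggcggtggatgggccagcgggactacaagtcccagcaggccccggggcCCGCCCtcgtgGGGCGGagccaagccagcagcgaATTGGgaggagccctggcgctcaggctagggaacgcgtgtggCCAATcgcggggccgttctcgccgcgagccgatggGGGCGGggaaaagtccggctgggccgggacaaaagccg
ELOVL5: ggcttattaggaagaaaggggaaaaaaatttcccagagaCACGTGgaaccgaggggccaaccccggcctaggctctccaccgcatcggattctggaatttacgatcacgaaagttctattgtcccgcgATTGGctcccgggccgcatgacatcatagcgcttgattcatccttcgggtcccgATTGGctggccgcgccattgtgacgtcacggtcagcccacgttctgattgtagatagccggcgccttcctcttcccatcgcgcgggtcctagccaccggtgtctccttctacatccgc

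GGGCGG was found in 3 places of the SREBF1 window, and CCAAT was not. The SCD and ACLY windows both held 2 CCAAT boxes, and the ELOVL5 window held 2 CCAAT boxes and the CACGTG that no other window of these genes had. CCAAT matched in 7 and GGGCGG in 10 of the 13 windows, some of which overlap as alternative starts of 1 gene, where 34.6% and 45% of all 35116 windows of this length hold them. A sterol regulatory element consensus and the DR4 element of LXR, searched as single fixed patterns on both strands, matched in 0 of the 13 windows, against 0.154% and 0.0199% of all windows. SREBF1 had only 1 window, so any other start of that gene was not searched for these or the other motifs. Matches of different motifs never overlapped. A match describes the letters only, and CCAAT boxes stood in the window of SCD, which rose, and in those of ACLY and ELOVL5, which were not called, but not in that of SREBF1.

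SREBF1, SCD and FASN rose in ADP-CM, and no tested gene of the group was called lowered. With edgeR's quasi-likelihood test and Benjamini-Hochberg adjustment over 12663 genes, 3 of the 8 genes with enough reads for a test were called raised (adjusted p-value limit 0.01), where 13.5% of all tested genes were raised. At the same limit 0 of the 8 were lowered, against 13% of all tested genes, and also 0 at an unadjusted p of 0.05 and with DESeq2. Adding a limit of 1.5-fold left 0 of the 8 in either direction, where 1.14% of all tested genes were left in each. SREBF1, SCD, FASN and FADS2 were higher in every ADP-CM library than in any control library, as were 22.7% of all tested genes, and 0 of the 8 were lower in every ADP-CM library, as were 22.8%. The median log2 fold change was 0.07 over the 8 genes and -0.00 over all tested genes.

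**Figure D1:**
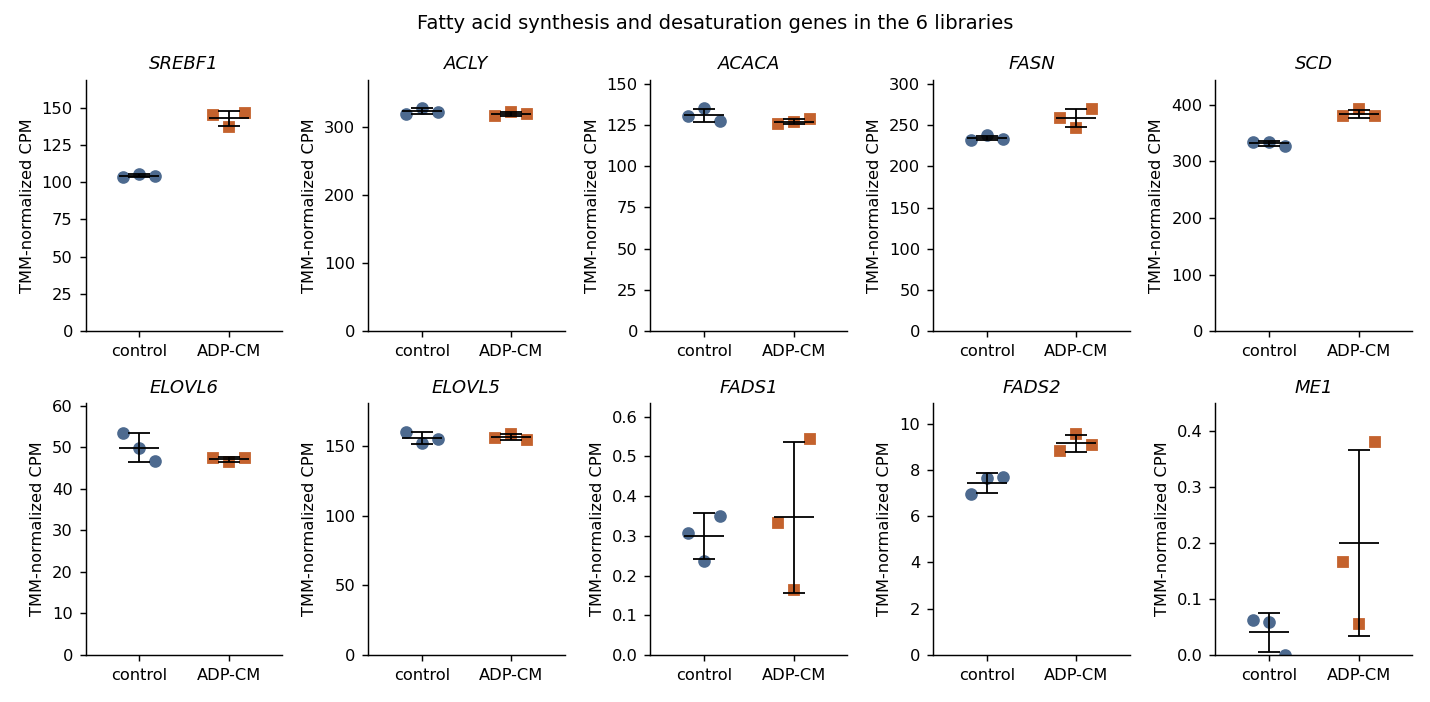
TMM-normalized CPM (linear axis from 0) of the 10 genes in the 3 control libraries (circles) and the 3 ADP-CM libraries (squares), with black bars for the mean and SD. SREBF1, FASN, SCD and FADS2 do not overlap between the groups, ACLY, ACACA, ELOVL6 and ELOVL5 overlap, and FADS1 and ME1 stay below 1 CPM.

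SREBF1 (chromosome 17, 17713713 to 17740316 on GRCh37), which encodes the regulator itself, stood at 103.7, 105.4 and 104.2 CPM (TMM-normalized) in control and at 145.3, 137.3 and 146.3 CPM in ADP-CM. Each ADP-CM library stood above every control library. The mean rose from 104.4 ± 0.831 to 142.9 ± 4.90 CPM (SD, n = 3 each), or 1.37-fold (log2 fold change 0.45, SE 0.032, adjusted p-value 3.85e-19, edgeR). A larger log2 fold change was seen for 3.66% of tested genes. The count pools the SREBP1a and SREBP1c transcripts, and 6.75% of the exonic bases of SREBF1 lie opposite RAI1, so reads from that stretch depend on the strand setting of the counting.

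SCD (chromosome 10, 102106990 to 102124583), the enzyme that desaturates palmitate and stearate, had 334.5, 333.2 and 327.0 CPM in control and 379.9, 391.2 and 379.3 CPM in ADP-CM. The groups did not overlap, and the gap between them was larger than the spread within either. SCD rose 1.16-fold, with a 95% interval of 1.12 to 1.19 (log2 fold change 0.21, SE 0.022, adjusted p-value 5.09e-12, edgeR). A processed copy, SCDP1, is annotated in the genome, and reads that aligned equally well to both were not counted.

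FASN (chromosome 17, 80036214 to 80056170), which synthesizes palmitate, had 232.1, 237.6 and 233.7 CPM in control and 258.6, 247.2 and 269.3 CPM in ADP-CM. ADP-CM replicate 2 was the lowest of its group and still above all control libraries. The rise was the smallest of the 3, at 0.14 on the log2 scale (95% interval 0.09 to 0.19, SE 0.026, adjusted p-value 1.19e-05, edgeR).

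FADS2 (chromosome 11, 61560452 to 61634826), the delta-6 desaturase that starts the polyunsaturated branch, had 113, 129 and 132 reads in control and 160, 175 and 167 reads in ADP-CM. This corresponds to 7.44 ± 0.414 and 9.15 ± 0.358 CPM (SD, n = 3 each), and the groups did not overlap. The log2 fold change of 0.30 had a 95% interval of 0.09 to 0.51 and an adjusted p-value of 0.0217 (edgeR), short of 0.01, and 0.132 with DESeq2. The estimate is thus larger than that of SCD but rests on far fewer reads. Of the exonic bases of FADS2, 4.64% lie opposite FADS1 and 0.464% are shared with FEN1 on the same strand. Reads from the stretch opposite FADS1 depend on the strand setting of the counting.

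ACLY, ACACA, ELOVL6 and ELOVL5 were not past the test. ACLY (chromosome 17, 40023170 to 40086795), the citrate lyase, had 319.7, 328.3 and 322.3 CPM in control and 316.0, 322.7 and 320.2 CPM in ADP-CM. The groups overlapped, and the log2 fold change of -0.02 had a 95% interval of -0.06 to 0.03. ACACA (chromosome 17, 35441927 to 35766927), acetyl-CoA carboxylase, had 130.6, 135.0 and 127.1 CPM in control and 125.3, 127.0 and 128.4 CPM in ADP-CM, with an interval of -0.11 to 0.02 around -0.04. Both intervals lie below the interval of FASN, 0.09 to 0.19, though the difference between genes was not itself tested.

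ELOVL6 (chromosome 4, 110967002 to 111120355), the elongase of palmitate, had 53.4, 49.7 and 46.5 CPM in control and 47.3, 46.4 and 47.4 CPM in ADP-CM. Its control libraries were more spread than its ADP-CM libraries, and the log2 fold change of -0.08 had an interval of -0.18 to 0.01. ELOVL5 (chromosome 6, 53132196 to 53213977), the elongase of polyunsaturated fatty acids, had 160.1, 152.0 and 155.0 CPM in control and 155.8, 158.6 and 154.4 CPM in ADP-CM. The groups overlapped fully, with a log2 fold change of 0.01 and an interval of -0.05 to 0.06. The adjusted p-values of ACLY, ACACA, ELOVL6 and ELOVL5 were 0.585, 0.269, 0.159 and 0.908 (edgeR).

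**Figure D2:**
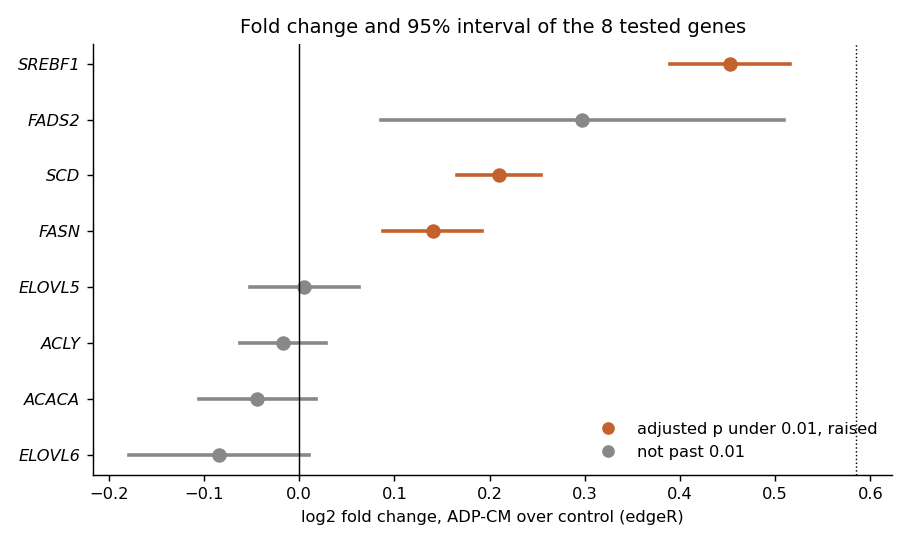
Log2 fold change of ADP-CM over control (x axis, edgeR) with its 95% interval for the 8 tested genes, colored by whether the gene was called at 0.01, with a dotted line at a fold of 1.5. SREBF1, SCD and FASN lie wholly above 0 and below the dotted line, FADS2 has the widest interval, and the intervals of ELOVL5, ACLY, ACACA and ELOVL6 include 0.

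FADS1 and ME1 had too few reads to be tested. FADS1 (chromosome 11, 61567099 to 61596790), the delta-5 desaturase, had 5, 4 and 6 reads in control and 6, 3 and 10 reads in ADP-CM. Summed over libraries, the ratio of ADP-CM to control was 1.16 with a 95% interval of 0.560 to 2.46, and 0.828 without ADP-CM replicate 3. Of the exonic bases of FADS1, 4.79% lie opposite FADS2. ME1 (chromosome 6, 83920121 to 84140770), cytosolic malic enzyme, had 1, 1 and 0 reads in control and 3, 1 and 7 reads in ADP-CM. Its ratio of 5.05 had an interval of 1.10 to 46.9, and without ADP-CM replicate 3 it was 2.76 with an interval of 0.396 to 30.5. These intervals are exact and cover counting error only, since reads were summed over the libraries of a group, which leaves out the spread between libraries. The reads also carry no molecular identifiers, so copies of a molecule cannot be told apart. ADP-CM replicate 3 held the most reads of both genes, and the interval of ME1 lay above 1 only when that library was included.

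Per length of merged exons, SCD and ACLY had the highest levels in control, at 63.2 ± 0.771 and 62.1 ± 0.847 RPKM (TMM-scaled reads per length, SD, n = 3). The library values of these genes overlapped, and their difference was not tested. ELOVL5 followed with 40.8 ± 1.08, FASN with 25.2 ± 0.302, SREBF1 with 12.7 ± 0.101, ACACA with 10.1 ± 0.302 and ELOVL6 with 6.86 ± 0.474. FADS2 was at 0.705 ± 0.0393, and FADS1 and ME1 were at 0.0292 ± 0.00563 and 0.0121 ± 0.0105. In ADP-CM SCD reached 73.1 ± 1.28, above ACLY at 61.4 ± 0.646 by this length, while the order of the other tested genes was as in control. The lengths come from GENCODE and not from the RefSeq models that were counted. With the length of the canonical transcript ACLY stood above SCD in control (75.4 against 63.2) and in ADP-CM (74.5 ± 0.784 against 73.1 ± 1.28). In ADP-CM the library values of ACLY and SCD by this length overlapped. By either length FADS1 and FADS2, the front-end desaturases, and ME1 had the lowest levels.

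Ratios of related genes within a library, which do not depend on how libraries are scaled, were compared by exact two-sided permutation tests, for which 3 against 3 libraries cannot give a p below 0.1. SREBF1 and SREBF2 encode the related factors SREBP1 and SREBP2. Their read ratio was 0.652, 0.645 and 0.665 in control and 1.12, 1.06 and 1.07 in ADP-CM. The groups were far apart, at 0.654 ± 0.0102 and 1.08 ± 0.0307 (SD, n = 3 each), a 1.66-fold change with the smallest possible exact p of 0.1 (0.3 adjusted over the 3 ratios). ELOVL6 over ELOVL5 was 0.320 ± 0.0177 in control and 0.301 ± 0.00751 in ADP-CM, with an exact p of 0.3 (adjusted 0.45). FADS1 over FADS2 was 0.0402 ± 0.00802 and 0.0382 ± 0.0214, with an exact p of 0.8 (adjusted 0.8), and rests on at most 10 reads of FADS1 in any library. The latter 2 ratios overlapped between the groups.

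**Figure D3:**
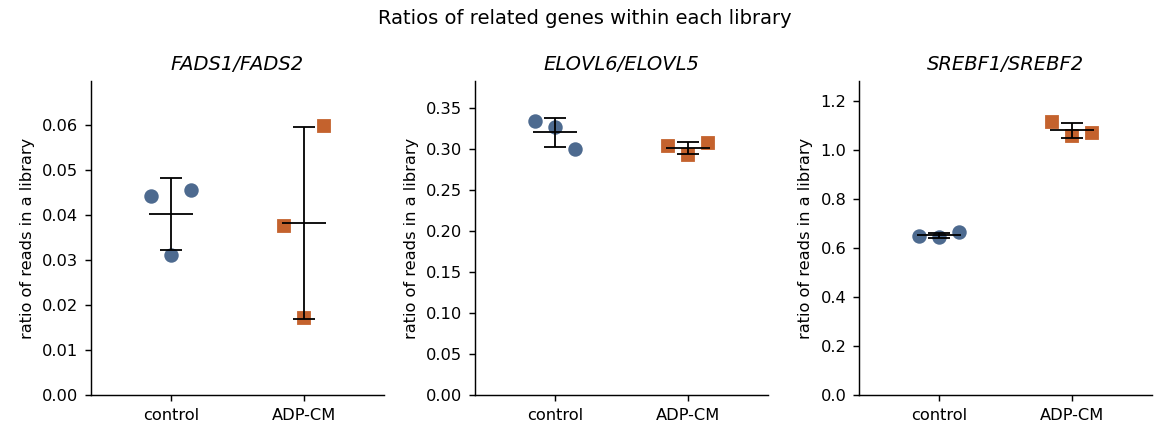
Ratio of reads of FADS1 to FADS2, ELOVL6 to ELOVL5 and SREBF1 to SREBF2 in each control (circle) and ADP-CM (square) library, with black bars for the mean and SD and axes from 0. The SREBF1 to SREBF2 ratio is below 0.7 in all control libraries and above 1 in all ADP-CM libraries, and the other ratios overlap.

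The rest of the pathway was described through lists of genes around these 10, by counts and medians only. Of 13 tested genes that supply carbon and acyl groups, 2 were raised and 2 lowered (edgeR, limit 0.01), near the 13.5% and 13% of all tested genes, and the median log2 fold change was -0.03. SLC25A1, the mitochondrial citrate carrier upstream of ACLY, fell from 57.3 ± 0.173 to 49.3 ± 3.85 CPM (mean ± SD of 3 libraries, log2 fold change -0.22, adjusted p-value 9.68e-05, edgeR). ACSS2, which makes acetyl-CoA from acetate, fell from 39.6 ± 2.32 to 29.8 ± 0.750 CPM (log2 fold change -0.41, adjusted p-value 4.05e-09, edgeR). ACACB, the mitochondrial counterpart of ACACA, was not past the limit (log2 fold change -0.33, adjusted p-value 0.0747). ACSS1 and ACSL4 made up the raised genes, named here after their values were seen, and the count of 2 became 0 with DESeq2 and 1 when replicate 1 or 3 of control or replicate 2 of ADP-CM was left out.

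Of 10 tested enzymes of NADPH supply 5 were lowered and 1 was raised, where 13% and 13.5% of all tested genes were, and the median log2 fold change was -0.14. PGD, a dehydrogenase of the pentose phosphate pathway, had 140.3, 136.6 and 143.1 CPM in control and 102.0, 102.8 and 104.1 CPM in ADP-CM. Its libraries did not overlap between the groups, and its level fell by 0.44 on the log2 scale (SE 0.031, adjusted p-value 5.79e-19, edgeR). IDH1, cytosolic isocitrate dehydrogenase, fell by 0.18 on the log2 scale (adjusted p-value 3.74e-06, edgeR). The raised gene, named after its value was seen, was ME3, a mitochondrial malic enzyme (log2 fold change 0.50), which DESeq2 did not call.

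Of the 12 tested partners in elongation and desaturation 4 were lowered and 0 raised, beside 13% and 13.5% of all tested genes, with 0 raised also at an unadjusted p of 0.05 in edgeR and with DESeq2. The median log2 fold change was -0.10. TECR, the reductase of the elongation cycle, fell from 75.3 ± 2.26 to 64.1 ± 2.37 CPM, or by 0.23 on the log2 scale (adjusted p-value 1.83e-06, edgeR). CYB5R3, which passes electrons to cytochrome b5 and so to the desaturases, fell by 0.16 on the same scale. HSD17B12, the ketoacyl reductase of the cycle, was called at -0.10 (adjusted p-value 0.00878, edgeR), a value which rose above 0.01 with DESeq2 (0.0512), plain library sizes (0.0109) and no filter (0.0116) and without any single library other than ADP-CM replicate 3 (up to 0.0562). ELOVL1, ELOVL7, SCD5 and FADS3, paralogs of the genes above, had log2 fold changes of -0.07, -0.14, -0.05 and -0.07 and did not pass the limit.

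Of 26 tested SREBP regulators 3 were raised and 5 lowered, near the all-gene shares of 13.5% and 13%, and the median log2 fold change was 0.02. The 3 raised became 2 with DESeq2 and when any single library was left out, and 5 at a limit of 0.05. The 5 lowered became 3 with DESeq2, and also when replicate 3 of control or replicate 1 or 3 of ADP-CM was left out. SREBF2 fell from 159.8 ± 3.37 to 132.0 ± 3.74 CPM (log2 fold change -0.27, adjusted p-value 1.21e-11, edgeR), opposite to SREBF1. INSIG1, which holds the SREBP precursors in the endoplasmic reticulum and is itself a SREBP target, fell from 70.4 ± 2.05 to 45.7 ± 1.57 CPM (log2 fold change -0.63, adjusted p-value 9.94e-20, edgeR), and it alone of this list was called past 1.5-fold. Its paralog INSIG2 had a log2 fold change of 0.16 that missed the limit (adjusted p-value 0.0258, edgeR). MID1IP1, which helps acetyl-CoA carboxylase to polymerize, rose by 0.24 (adjusted p-value 0.000279, edgeR). SCAP, the escort of the precursors, and MBTPS1, the first protease that cleaves them, had log2 fold changes of -0.04 and -0.06 and were not past the limit, and neither was MLXIPL, the carbohydrate-responsive factor ChREBP (0.09).

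LXR is known to raise SREBF1 transcription, so its receptors and other targets were set beside SREBF1. Whether LXR acted on SREBF1 in these cells was not tested. NR1H2, the widely expressed receptor LXR-beta, had 41.2 ± 2.06 CPM in control and 41.7 ± 1.35 in ADP-CM, and NR1H3 (LXR-alpha) 3.15 ± 0.905 and 2.85 ± 0.275 (SD, n = 3 each), neither past the limit. Of 11 listed LXR targets 5 could be tested, and 3 of these were raised and 0 lowered (0 also at an unadjusted p of 0.05 and with DESeq2), where the shares over all tested genes were 13.5% and 13%. The other tested targets were NR1H3 itself and SMPDL3A, the latter named after its value was seen, with log2 fold changes of -0.15 and -0.34, and neither was called. LPCAT3, which builds polyunsaturated fatty acids into phospholipids, had 27.1, 25.5 and 26.1 CPM in control and 37.3, 35.7 and 35.8 CPM in ADP-CM. The groups did not overlap, and LPCAT3 rose by 0.47 on the log2 scale (SE 0.055, adjusted p-value 2.13e-10, edgeR), where SREBF1 rose by 0.45. MYLIP, a ubiquitin ligase, had a log2 fold change of 0.27 and ABCG1, a sterol exporter, 1.09 on 9 to 25 reads per library. The count of 3 raised became 1, LPCAT3, with DESeq2 and without control replicate 1, where the adjusted p-values of MYLIP were 0.0435 and 0.0334 and those of ABCG1 0.0592 and 0.0167. ABCG1 was also lost when any other single library except ADP-CM replicate 3 was left out. ABCA1, a defining target of LXR, had at most 1 read in any library.

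The SREBP2 sterol genes, the set most related to the fatty acid genes, were mainly lowered. Of 24 tested, 19 were lowered and 0 raised, where 13% and 13.5% of all tested genes were, with 1 raised at an unadjusted p of 0.05 in edgeR and 0 with DESeq2, and the median log2 fold change was -0.36 against 0.07 for the fatty acid genes. That gene, EBP, named after its value was seen, had a log2 fold change of 0.75 and an adjusted p-value of 0.0139 (edgeR). The 0 became 1 when control replicate 1 or ADP-CM replicate 2 was left out, with no filter, with at least 10 reads in every library and at a limit of 0.05. HMGCS1, an early enzyme of the sterol pathway, fell from 227 ± 7.17 to 113 ± 3.51 CPM (SD, n = 3 each), with an adjusted p-value of 1.85e-38 (edgeR). SQLE, squalene epoxidase, fell from 277 ± 4.32 to 217 ± 3.38 CPM (adjusted p-value 4.73e-19, edgeR). The difference between the lists was not tested. In triglyceride and phospholipid assembly, downstream of all these steps, 1 of 15 tested genes was raised and 3 were lowered, near the 13.5% and 13% of all tested genes.

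**Figure D4:**
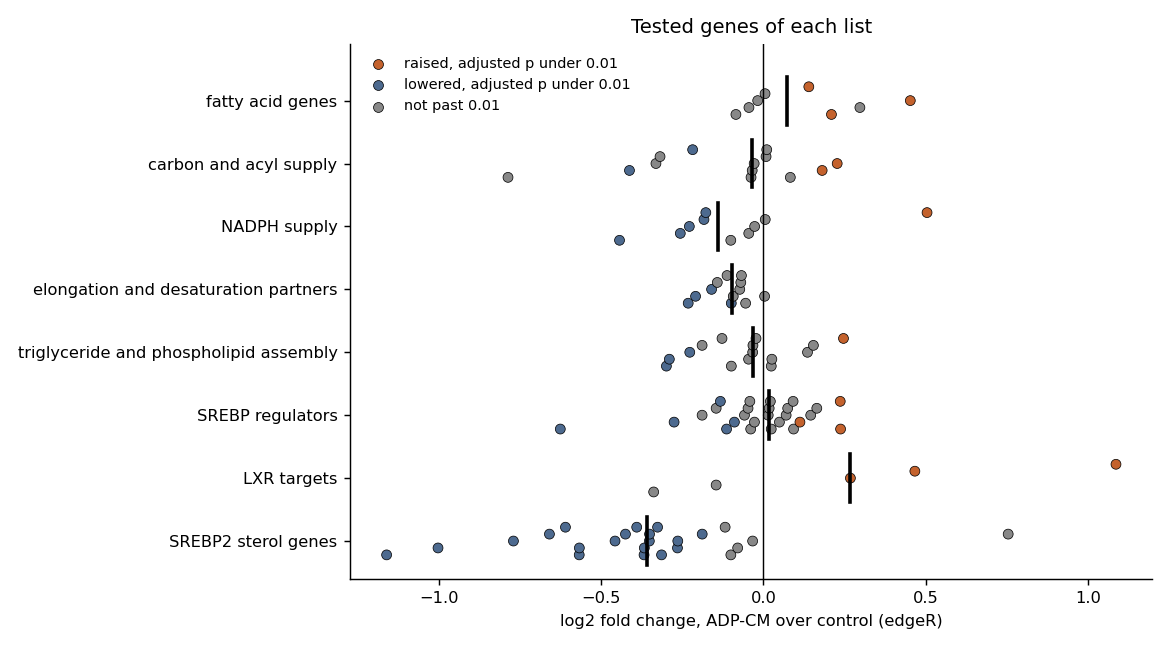
Log2 fold change of ADP-CM over control (x axis, edgeR) for each tested gene of 8 lists, with points spread vertically for legibility, colored by the direction called at 0.01, and a black bar at the median of each list. The fatty acid genes hold 3 raised and 0 lowered genes, whereas 19 of the 24 SREBP2 sterol genes are lowered.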

How the data were processed

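Per the labels and the study's methods, 50 nt single reads of stranded poly(A) libraries were aligned to hg19 by TopHat2, and HTSeq assigned them to RefSeq genes. The deposited values are raw counts, 1 table per library. Program versions and the strand setting of HTSeq are not given in the sources used here. Reads on no gene were 10.3% of the total in control and 11.5% in ADP-CM, ambiguous ones 0.719% and 0.714%, and those aligned to several places 20.5% and 20.7%, and none of these entered a library size or a test.

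Sample titles gave the groups. The tables were read into edgeR 4.0.16 (R 4.3.3), scaled by TMM and reduced by filterByExpr with its defaults to 12663 of 23228 genes, and tested between groups with glmQLFit and glmQLFTest (the quasi-likelihood test). Calls were made at 0.01 after Benjamini-Hochberg adjustment across every tested gene. The study used DESeq, this limit and a fold change of 1.5, which serves as a second limit here. CPM values are TMM-normalized, and RPKM values are these CPM divided by exon length. Ratios within libraries were compared by exact permutation tests (scipy 1.17.1). Positions, overlaps and lengths come from GENCODE 44 on GRCh37 (the assembly of hg19) and start regions from RefSeq on GRCh38.p14. In 6 cases a current symbol was matched to the older one of the tables.

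No pair of replicates was within sampling noise of each other, and the 6 libraries were kept apart. The genes, lists and tests were chosen with earlier results of these data known. The 10 genes and the genes named from each list were set by name, except where said, and 3 of the latter are not reported here. The fit was tested on simulated data. Alternatives were DESeq2 1.42.0, its size factors, plain library sizes, a robust fit, other filters and limits, the replicate number as a block, and fits that left out 1 library.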

Additional observations from a re-analysis of the deposited data

Results flagged for a closer look

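Reads that HTSeq placed on no gene made up 11.5% ± 0.0331 of all counted reads in ADP-CM and 10.3% ± 0.0528 in control (SD, n = 3 each), and the 3 ADP-CM libraries lay above the 3 control libraries (exact two-sided permutation p of 0.1, the smallest that 3 against 3 allows). This signal lies outside the gene counts that were compared, and its part in the results was not tested.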

How the results depend on the processing

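The calls of SREBF1, SCD and FASN, and the lack of a call for ACLY, ACACA, ELOVL6 and ELOVL5, were the same under the 14 alternatives that added no fold limit. Over the 6 fits that left out 1 library, the log2 fold change ran from 0.44 to 0.48 for SREBF1, from 0.19 to 0.22 for SCD and from 0.11 to 0.17 for FASN. FADS2 passed at a limit of 0.05 (adjusted p-value 0.0217, edgeR) and was not called otherwise. With the fold limit of 1.5 added, 0 of the fatty acid genes were raised. The other lists, with 103 tested genes, then held 1 raised and 6 lowered genes in place of 10 and 38. All genes held 144 raised and 144 lowered in place of 1707 and 1650. DESeq2 called 4 raised and 35 lowered genes of the other lists, and 1027 raised and 951 lowered of all genes. At a limit of 0.05 the fatty acid genes raised were 4. Scaling by DESeq2 size factors or by plain library sizes shifted the log2 fold changes of all tested genes by a median of 0.00044 and 0.0030 against TMM. Same-numbered libraries did not deviate together (correlations of 0.00498, 0.0501 and 0.0173), so the numbers were taken as names. With the replicate block 1786 genes were raised and 1716 lowered, and the fatty acid genes raised stayed at 3. The log2 change of the FADS1 to FADS2 ratio, -0.23, ran from -0.65 to 0.26 over the libraries left out, turning positive without ADP-CM replicate 2. The cause was not tested, but no library held over 10 FADS1 reads. The canonical transcript length, chosen after the merged lengths were seen, gave control levels of 21.3 for SREBF1, 75.4 for ACLY, 13.1 for ACACA, 27.7 for FASN, 7.60 for ELOVL6, 56.3 for ELOVL5, 0.0684 for FADS1 and 2.41 for FADS2 RPKM, since it is shorter for each of these genes. FADS1 and ME1 stayed too low for a test, with at most 10 and 7 reads in a library.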
